A study of Mus musculus with 16 samples.

Results

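The ErbB receptors and the ligands of the epidermal growth factor (EGF) family were examined in mouse melanomas of 2 engineered models and in melanocytes. They were defined as every probe set whose single gene symbol was Egfr, Erbb2, Erbb3, Areg, Ereg, Btc, Hbegf or Tgfa. Of 22626 probe sets on the array that are not controls, 16 met this definition, and they stood for 7 genes. No probe set carried Areg as its single symbol in the annotation used here, so Areg was not analysed here.

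The iMet melanomas (6 arrays) came from Tyr-rtTA;Tet-Met;Ink4a/Arf-/- mice, in which a tetracycline-responsive Met transgene is driven by a transactivator under the tyrosinase promoter. The iHRAS* melanomas (6 arrays), titled iRas by the submitters, carried Tyr-rtTA;Tet-HRASV12G;Ink4a/Arf-/-, with an activated HRAS in place of Met. Loss of Ink4a/Arf and the Tyr-rtTA driver were thus shared by both tumour groups. Melanocytes labelled as free of disease (4 arrays) were the third group, and their genotype, culture and age are not given in the labels. The labels describe melanoma cells isolated from the mice whereas the design text describes RNA from cutaneous melanomas, and neither says that the samples of a group were separate animals, so p-values measure the spread between these samples, which may be technical.

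ErbB receptors are receptor tyrosine kinases that work in pairs. Ligand binding lets EGFR, encoded by Egfr, pair with itself or with a relative. ERBB2 has no known ligand of its own and serves as the preferred partner. ERBB3 binds neuregulins, has little kinase activity and recruits phosphoinositide 3-kinase once a partner has phosphorylated it. In the neural crest lineage, from which melanocytes and Schwann cells arise, neuregulin signals through ERBB3 and ERBB2. The ligands of the EGF family are made as membrane-bound precursors and released by metalloproteases, and RAS-driven cells are known to make several of them, which can act back on the same cells.

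Signal is given on the log2 scale after quantile normalization, so a difference of 1 is a doubling on that scale. The 40th percentile of all values, log2 6.21, was taken as the level below which signal lies near background. A probe set was tested when enough arrays exceeded that level (6 of the 12 tumour arrays, or 4 of all 16 arrays against melanocytes), and it was called at an adjusted p under 0.05 in limma, with Benjamini-Hochberg adjustment over all probe sets tested. Levels were compared between groups within a probe set only, never between probe sets.

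Markers of cell types were read first, since they bear on each group. Of 8 melanocyte markers on the array, Mitf, Tyr, Tyrp1, Dct and Kit lay below log2 6.21 on all 4 melanocyte arrays, and Tyr, Tyrp1, Dct, Pmel and Pax3 did so on all 6 iMet arrays. The melanocyte arrays had Sox10 at 9.04 to 10.41. Of 11 keratinocyte markers, 8 lay above 6.21 on every melanocyte array, among them Krt5, Krt14, Perp, Dsp, Col17a1, Sfn and Trp63. The basal keratinocyte genes Krt5 and Krt14 had means of 12.57 and 12.73 there. The other 3 markers, Krt1, Cdh1 and Epcam, lay below 6.21 on all of these arrays. The defining melanocyte markers were thus partly absent and most keratinocyte markers present. The word melanocytes is used here as the submitters' name of the group. The mean of 11 keratinocyte markers was 4.53 to 9.41 over iMet arrays, 8.65 to 10.85 over iHRAS* arrays and 6.89 to 9.30 over melanocyte arrays. Macrophage, fibroblast and endothelial marker means were higher in both tumour groups than in melanocytes (4.66 and 3.67, 2.77 and 2.66, and 3.66 and 2.50 log2 for iMet and iHRAS*; exact permutation p = 0.00476 each, the smallest that 6 against 4 arrays allow; adjusted p = 0.00857), with Itgam, Mrc1, Pecam1, Cdh5, Emcn, Esam and Tek below 6.21 on every melanocyte array. In such bulk samples a lower signal can reflect fewer cells of a type or less RNA per cell, which cannot be told apart here. Met itself averaged 9.47 ± 0.55 in iMet tumours and 6.94 ± 0.77 in iHRAS* tumours (SD, n = 6 each).

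The melanocyte arrays were also read as 2 pairs, arrays 1 and 3 against arrays 2 and 4, a split that the labels do not give. The pairs did not overlap for several member probe sets and overlapped for the others. The share without overlap over all probe sets was not computed, so the members are not evidence that the arrays form pairs. Ereg averaged 7.48 on arrays 1 and 3 and 5.39 on arrays 2 and 4. For Hbegf (1418350_at) the means were 10.29 and 8.96, and for Erbb3 (1434606_at) they were 10.68 and 9.49. Marker means moved with the pairs: keratinocyte means were 7.89 and 6.89 on arrays 1 and 3 and 9.30 and 9.11 on arrays 2 and 4, and fibroblast means were 10.43 and 11.23 on arrays 1 and 3 and 8.59 and 7.82 on arrays 2 and 4. Their part in the member values was not tested. Results against melanocytes are given with a pair left out where that ended a call. Xist was at 6.60 and 6.33 on iHRAS* arrays 5 and 6 and at 10.92 or more on the other 14 arrays.

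Epgn, Ereg, Areg and Btc follow one another on mouse chromosome 5 with only non-coding genes between them in the RefSeq annotation. Epgn (epigen), a further ligand of EGFR, was lowest in iHRAS* tumours, and Btc (betacellulin), which binds EGFR and ERBB4, was highest there. The stretches upstream of their starts are shown for that reason. The start of Errfi1, a feedback inhibitor of the receptors whose signal was higher in both tumour groups than in melanocytes, is shown with them. Each is the 250 bases before the transcription start, 5′ to 3′, from RefSeq on GRCm38.p6: chr5:91402995-91403244 on the minus strand for Btc, chr5:91027267-91027516 on the plus strand for Epgn and chr4:150854820-150855069 on the plus strand for Errfi1, the second of 2 starts listed. Capitals mark matches to the motifs searched.
Btc: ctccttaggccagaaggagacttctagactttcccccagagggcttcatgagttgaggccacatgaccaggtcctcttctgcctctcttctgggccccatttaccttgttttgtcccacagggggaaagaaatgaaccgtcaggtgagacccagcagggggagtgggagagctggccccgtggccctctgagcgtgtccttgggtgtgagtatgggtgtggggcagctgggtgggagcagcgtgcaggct
Epgn: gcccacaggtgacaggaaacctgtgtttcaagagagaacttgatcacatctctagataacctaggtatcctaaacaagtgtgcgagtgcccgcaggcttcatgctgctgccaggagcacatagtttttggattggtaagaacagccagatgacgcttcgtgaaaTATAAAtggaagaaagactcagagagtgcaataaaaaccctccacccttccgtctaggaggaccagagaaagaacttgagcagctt
Errfi1: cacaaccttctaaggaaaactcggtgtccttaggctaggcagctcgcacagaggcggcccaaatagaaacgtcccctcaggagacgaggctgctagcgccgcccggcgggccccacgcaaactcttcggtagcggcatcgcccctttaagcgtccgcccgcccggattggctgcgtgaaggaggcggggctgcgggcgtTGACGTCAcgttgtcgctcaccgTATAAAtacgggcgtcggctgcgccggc

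The motifs searched on both strands, with results known, were the AP-1 site TGANTCA, the cyclic AMP response element TGACGTCA, the ETS core CCGGAA and the TATA box TATAAA, and no printed match overlaps another. Errfi1 held 1 cyclic AMP response element, which starts 51 bases before the transcription start, and 1 TATA box, whereas the window of its first listed start, not shown, held no match to the 4 motifs. Epgn held 1 TATA box, 86 bases before the start, and the Btc window held no match to the 4 motifs. Among all 32851 promoter windows of the same length, 6.75% held the AP-1 site, 1.55% the cyclic AMP response element, 12.03% the ETS core and 12.37% the TATA box. Of the members, Egfr, Erbb2, Areg, Btc and Tgfa had a promoter window that was searched. The promoter set used here held no entry under the symbols Erbb3 and Ereg. Entries on the chromosome of Hbegf were left out, so the absence of Hbegf does not show that it lacks a promoter entry. Areg held 1 cyclic AMP response element and 1 TATA box, Egfr held 1 ETS core, and the windows of Erbb2 and Tgfa held no match. A match describes these letters and is not evidence of binding.

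The first comparison, of iMet with iHRAS* melanomas, addresses how the models, which the design text sets apart by whether they can metastasise, differ. Of the 11 member probe sets tested, 6 were lower in iMet tumours and none was higher, against 8.33% of all 13747 probe sets tested called lower, 11% called higher and 19.3% called either way. With each gene taken by its brightest probe set, 9.39% of genes were called lower. The 6 stood for 5 genes: the receptors Erbb2 and Erbb3 and the ligands Ereg, Btc and Hbegf. The median difference of the 11 was −0.97 log2, against 0.06 over all probe sets tested. In 4 of the 11 the groups did not overlap, against 10.1% of all tested. With the values as deposited, the same numbers of members were called, 6 lower and none higher. That scaling moved the whole table more, with 82.2% of all calls higher in iMet tumours, against 56.9% after quantile normalization, and a median of 0.26 over all probe sets.

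Erbb3 carried the largest difference of the family. Its brighter probe set (1434606_at) was at 5.44, 6.62, 5.36, 4.89, 6.41 and 6.46 in iMet tumours 1 to 6. In iHRAS* tumours 1 to 6 it was at 9.94, 10.87, 10.77, 10.92, 9.68 and 10.92, and in melanocytes 1 to 4 at 10.49, 9.50, 10.87 and 9.47. Every iMet tumour thus lay below every array of the other groups, which overlapped each other. The difference between iMet and iHRAS* tumours was −4.66 ± 0.34 (SE; limma adjusted p = 1.3e-05), or 25.2-fold. Since 3 of the 6 iMet arrays lay below 6.21, the size is uncertain, and with those arrays set to 6.21 it was 17.9-fold. Erbb3 was also lower in iMet tumours than in melanocytes, by −4.22 ± 0.40 (adjusted p = 2.46e-06). Between iHRAS* tumours and melanocytes the difference of 0.44 did not pass, with a 95% interval from −0.42 to 1.29 (adjusted p = 0.409).

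The second Erbb3 probe set (1452482_at) was dim throughout, exceeding 6.21 on 2 iHRAS* arrays only, and was not tested across the table. It averaged 3.30 ± 1.17 in iMet tumours, 5.09 ± 1.63 in the iHRAS* group and 5.44 ± 0.91 in the melanocyte group (SD, n = 6, 6 and 4). Exact permutation tests of its iMet values gave p = 0.0541 against iHRAS* tumours (adjusted p = 0.122) and p = 0.0238 against melanocytes (adjusted p = 0.0714), so its differences in the same direction did not pass.

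ERBB3 is the neuregulin receptor of the neural crest and Schwann cell lineage. As for Erbb3, the mean of the markers of this lineage was lowest in the iMet group, but not every marker followed. Sox2, Foxd3 and Ngfr were lowest there and above 6.21 on every other array. Egr2 did not move with Erbb3: its group means were 5.88 (iMet), 8.11 (iHRAS*) and 5.10 (melanocytes). Mbp had close group means, at 6.47, 6.86 and 6.72 in the same order. Of 7 markers of this lineage on the array, 5 were tested between the tumour models and 4 were lower in iMet tumours, with none higher, against 9.39% of all genes called lower. Only iHRAS* arrays carried Sox2, Foxd3 and Ngfr past the signal filter there, so they had to differ and are no support for that count. The mean of the 7 markers was 3.75 to 4.73 over iMet arrays, 6.36 to 7.78 over iHRAS* arrays and 6.61 to 7.55 over melanocyte arrays. Sox2, Foxd3, Ngfr, S100b and Gfap lay below 6.21 on every iMet array. Gfap was below it on every iHRAS* and melanocyte array too, and S100b on every melanocyte array. The mean of 8 melanocyte markers was also lower in iMet than in iHRAS* tumours, at 5.21 to 5.88 against 5.94 to 7.81. The difference was −1.31 (exact permutation p = 0.00216, adjusted p = 0.00857). Of 5 of these markers tested, 3 were lower and none higher, against 9.39% of all genes called lower. Pmel and Pax3 lay below 6.21 on every iMet array and above it on every iHRAS* array. Only iHRAS* arrays carried these genes past the signal filter there, so they are no support for that count. Mitf and Kit had close means in the 2 models, at 7.56 and 7.34 and at 6.89 and 6.93 for iMet and iHRAS*. Against melanocyte arrays, at 4.78 to 5.94, the mean of the 8 melanocyte markers differed by 0.02 in iMet tumours and by 1.33 in iHRAS* tumours (exact permutation p = 0.938 and 0.00952; adjusted p = 0.938 and 0.0156). That mean thus did not separate iMet tumours from melanocytes, but single markers moved in both directions. Sox10, Pax3 and Pmel averaged 6.90, 4.79 and 5.52 in iMet tumours and 9.66, 6.56 and 6.70 in melanocytes. Mitf and Kit averaged 7.56 and 6.89 in iMet tumours and 5.67 and 2.48 in melanocytes. The part of the Schwann cell, neural crest and melanocyte markers in the Erbb3 and other member results was not tested. The profiles nearest to that of Erbb3 over the 16 arrays, by root mean square difference after centring each gene, were L1cam (0.82 log2), Nkd2 (0.90) and Sox10 (0.92), against a spread of Erbb3 itself around its mean of 2.26. All 3 likewise had their lowest group mean in iMet tumours, with Sox10 at 6.90 for iMet, 10.16 for iHRAS* and 9.66 for melanocyte arrays.

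**Figure D1:**
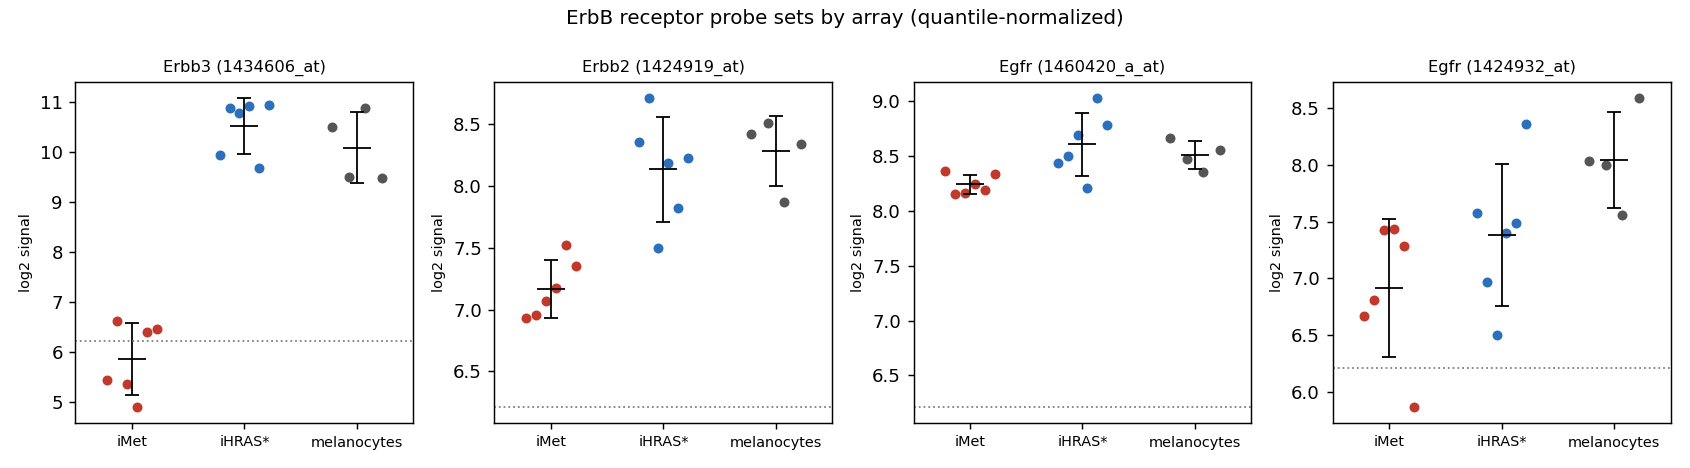
Log2 signal of ErbB receptor probe sets on each array (points), with the group mean and SD (bars), for 6 iMet tumours, 6 iHRAS* tumours and 4 melanocyte arrays; the dotted line marks log2 6.21 and each panel has its own vertical scale. All 6 iMet tumours lie below every other array for Erbb3, while for Erbb2 and Egfr the tumour groups overlap.

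Erbb2 (1424919_at), the partner receptor without a ligand, was lower in iMet tumours as well, but by less. It was at 6.93, 6.96, 7.07, 7.18, 7.52 and 7.36 in iMet tumours 1 to 6, against 8.36, 8.71, 7.50, 8.18, 7.82 and 8.22 in iHRAS* tumours 1 to 6. Only iMet tumour 5 and iHRAS* tumour 3 overlapped, at 7.52 and 7.50. The difference was −0.97 ± 0.19 (adjusted p = 0.00498). The 4 melanocyte arrays, at 8.42, 8.51, 7.87 and 8.34, were all above the iMet tumours, which were lower by −1.12 ± 0.21 (adjusted p = 0.00102). Between iHRAS* tumours and melanocytes Erbb2 differed by −0.15, with a 95% interval from −0.60 to 0.30 (adjusted p = 0.599). With the keratinocyte marker mean of each array as a covariate, the difference between the tumour models was −0.90 and missed the threshold (adjusted p = 0.0722; 0.00146 to 0.0722 over the alternatives run). The nearest profiles to Erbb2 were those of Bpnt1 (0.31 log2), Med22 (0.31) and Myo18a (0.32), against its own spread of 0.58.

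Egfr was read by 5 probe sets, and they did not give 1 answer. None of the 4 tested between the tumour models was called, with differences from −0.47 to 0.08. The brightest (1460420_a_at) ranged from 8.15 to 8.36 in iMet tumours and from 8.21 to 9.03 in iHRAS* tumours. Its difference of −0.37 had a 95% interval from −0.65 to −0.08 and an adjusted p of 0.0704, and it passed without iHRAS* array 4, at −0.45 (adjusted p = 0.0276). It was −0.22 without iHRAS* arrays 5 and 6, those with low Xist, and −0.11 as deposited (adjusted p = 0.231 and 0.664; 0.0276 to 0.664 over the alternatives run). For 1451530_at those 2 arrays stood apart, at 7.41 and 7.37 against 5.37 to 6.12 on the other iHRAS* arrays. Without them its difference of 0.08 became 0.59 (adjusted p = 0.0733; 0.0733 to 0.999 over the alternatives run).

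Against melanocytes the Egfr probe sets split. The probe set 1424932_at averaged 6.92 ± 0.61 in iMet tumours, 7.38 ± 0.63 in the iHRAS* group and 8.04 ± 0.42 in melanocytes (SD, n = 6, 6 and 4). It was lower in iMet tumours than in melanocytes by −1.13 ± 0.35 (adjusted p = 0.0230), with no overlap, but missed the threshold without melanocyte array 4, at −0.95 (adjusted p = 0.0764), without melanocyte arrays 2 and 4, at −0.88 (adjusted p = 0.184), and as deposited (adjusted p = 0.0734; 0.0106 to 0.184 over the alternatives run). The −0.66 of iHRAS* tumours did not pass (adjusted p = 0.149). The related 1451530_at, made from the same accession, was lower in both tumour groups, by −0.98 ± 0.36 in iMet tumours (adjusted p = 0.0461) and by −1.06 ± 0.36 in iHRAS* tumours (adjusted p = 0.0282). Neither call of 1451530_at was firm: the first was lost under 14 of 20 alternatives, among them leaving out either melanocyte pair, melanocyte array 1, 2 or 4, or any iMet array but 4 (adjusted p = 0.00454 to 0.231). The second was lost under 10 of 20, among them leaving out either melanocyte pair, melanocyte array 1, 2 or 4, or iHRAS* array 1 or 4 (adjusted p = 0.000469 to 0.179). The dim 1454313_at was lower by −0.79 ± 0.22 in iMet and −0.77 ± 0.22 in iHRAS* tumours (adjusted p = 0.0115 and 0.0117). Both calls were lost without melanocyte arrays 1 and 3, at −0.62 and −0.59 (adjusted p = 0.125 and 0.118), and as deposited, at −0.51 and −0.56 (adjusted p = 0.175 and 0.106), and the iHRAS* call also after median centring (−0.58, adjusted p = 0.0528). Over the alternatives run, adjusted p was 0.00270 to 0.175 and 0.00579 to 0.118. Of its values, 3 of 4 in melanocytes were above 6.21 and 1 of 12 in tumours was. The probe set thus passed the filter mainly through melanocyte arrays, so both calls add little. The brightest probe set was not called in either comparison, at −0.27 in iMet tumours (95% interval from −0.57 to 0.03) and 0.10 in iHRAS* tumours (−0.20 to 0.39), but the iMet difference passed after median centring, at −0.43 (adjusted p = 0.0192; 0.0192 to 0.431 over the alternatives run). The dim 1432647_at was not called either, at −0.33 and −0.20. Usp36 (0.16 log2), Snap29 (0.16) and Tmsb4x (0.17) lay nearest to the brightest Egfr probe set, whose own spread of 0.24 was small.

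Btc separated the RAS tumours from both other groups. Its brighter probe set (1435541_at) was at 6.06, 5.98, 5.68, 6.81, 7.58 and 7.03 in iMet tumours 1 to 6. It was at 9.50, 8.84, 9.95, 9.16, 9.25 and 8.66 in iHRAS* tumours 1 to 6, and at 6.68, 6.73, 6.08 and 7.01 in melanocytes 1 to 4. All 6 iHRAS* tumours lay above every other array. The difference of iMet from iHRAS* tumours was −2.70 ± 0.33 (adjusted p = 0.000322), or 6.50-fold (5.85-fold with the 3 iMet arrays below 6.21 set to that level), and iHRAS* tumours exceeded melanocytes by 2.60 ± 0.35 (adjusted p = 6.24e-05). Between iMet tumours and melanocytes it differed by −0.10, with a 95% interval from −0.84 to 0.64 (adjusted p = 0.845).

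The dimmer Btc probe set (1421161_at) ran from 2.93 to 5.08 in iMet tumours, from 5.84 to 7.21 in the iHRAS* group and from 3.71 to 5.43 in melanocytes. It was not tested between the tumour models across the table. An exact permutation test gave p = 0.00216, the smallest that 6 against 6 arrays allow (adjusted p = 0.00974), with iMet tumours below every iHRAS* tumour by −2.16. All iMet values lay below 6.21, so iHRAS* tumours were at least 1.17-fold higher. Against melanocytes iHRAS* tumours were higher by 1.83 ± 0.40 (adjusted p = 0.00249), but only iHRAS* arrays carried the probe set past the signal filter, so that call adds little. Clcf1 (0.59 log2), Dtx2 (0.59) and Fgf13 (0.66) had the profiles nearest to the brighter Btc probe set, whose own spread was 1.39.

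Hbegf, the heparin-binding ligand of EGFR and ERBB4, was lower in iMet tumours and read alike by both of its probe sets. The brighter one (1418350_at) was at 8.27, 8.26, 8.31, 9.36, 7.05 and 7.98 in iMet tumours 1 to 6, against 11.73, 11.15, 10.78, 9.00, 11.03 and 10.07 in iHRAS* tumours 1 to 6. The melanocytes were at 10.78, 8.98, 9.79 and 8.94. Only iMet tumour 4 and iHRAS* tumour 4 overlapped between the models. The difference between the tumour models was −2.42 ± 0.45 (adjusted p = 0.00360), or 5.36-fold. In the other probe set (1418349_at) it was −2.72 ± 0.32 (adjusted p = 0.000308) with no overlap, at 5.77 to 7.36 in iMet tumours and 8.29 to 10.23 in iHRAS* tumours.

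Melanocytes lay between the tumour groups for Hbegf, and the calls against them depended on which melanocyte arrays were kept. In iMet tumours the probe sets were lower than in melanocytes by −1.42 ± 0.52 and −1.34 ± 0.42 (adjusted p = 0.0469 and 0.0248). Without melanocyte arrays 1 and 3 these became −0.76 and −0.63 (adjusted p = 0.395 and 0.322; over the alternatives run 0.0196 to 0.395 and 0.00832 to 0.322). The call of 1418350_at was also lost without melanocyte array 1 or 3 or any iMet array but 4, and that of 1418349_at without melanocyte array 1 or 3 or iMet array 5. Both were lost as deposited (adjusted p = 0.0619 and 0.0649) and with the replicate number as a block (adjusted p = 0.128 and 0.0574). That of 1418350_at was lost too with no filter on dim probe sets (adjusted p = 0.0688) and without iHRAS* arrays 5 and 6 (adjusted p = 0.0625). In iHRAS* tumours 1418349_at was higher than in melanocytes by 1.38 ± 0.42 (adjusted p = 0.0187), and without melanocyte arrays 2 and 4 by 0.67 (adjusted p = 0.323; 0.00360 to 0.323 over the alternatives run). Leaving out array 2 or array 4 alone gave 1.21 and 1.08 (adjusted p = 0.0646 and 0.0720). The brighter probe set, at 1.00 with a 95% interval from −0.10 to 2.10, did not pass there (adjusted p = 0.137), though it did without iHRAS* array 4, at 1.33 (adjusted p = 0.0355; 0.0355 to 0.729 over the alternatives run). Gdnf (0.55 log2), Gpc1 (0.73) and Cdkn1a (0.73) lay nearest to the brighter Hbegf probe set, whose own spread was 1.31.

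Ereg (epiregulin, 1419431_at), a ligand of EGFR and ERBB4, was graded across the 3 groups. It was at 7.61, 8.08, 7.43, 7.70, 8.27 and 8.23 in iMet tumours 1 to 6, and at 9.22, 9.09, 8.53, 9.49, 10.20 and 9.05 in iHRAS* tumours 1 to 6. The melanocytes were at 7.48, 5.32, 7.48 and 5.46. No iMet tumour reached the lowest iHRAS* tumour, and the difference was −1.38 ± 0.25 (adjusted p = 0.00322), or 2.60-fold. With the keratinocyte covariate it was −1.13 (adjusted p = 0.0715; 0.00151 to 0.0715 over the alternatives run).

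Ereg exceeded melanocytes in both tumour models. In iHRAS* tumours it did so by 2.83 ± 0.43 (adjusted p = 0.000185), with no overlap, and it stayed called under every alternative run, at 1.78 to 3.88. In iMet tumours the excess was 1.45 ± 0.43 (adjusted p = 0.0179), and the groups overlapped. That call rested on melanocyte arrays 2 and 4: without both the difference was 0.40 (adjusted p = 0.433), and without either it was 1.08 or 1.12 (adjusted p = 0.0753 and 0.0688; 0.000204 to 0.433 over the alternatives run). Oaf (0.39 log2), Prss22 (0.50) and Fxyd5 (0.56) were nearest to Ereg, whose own spread was 1.27.

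**Figure D2:**
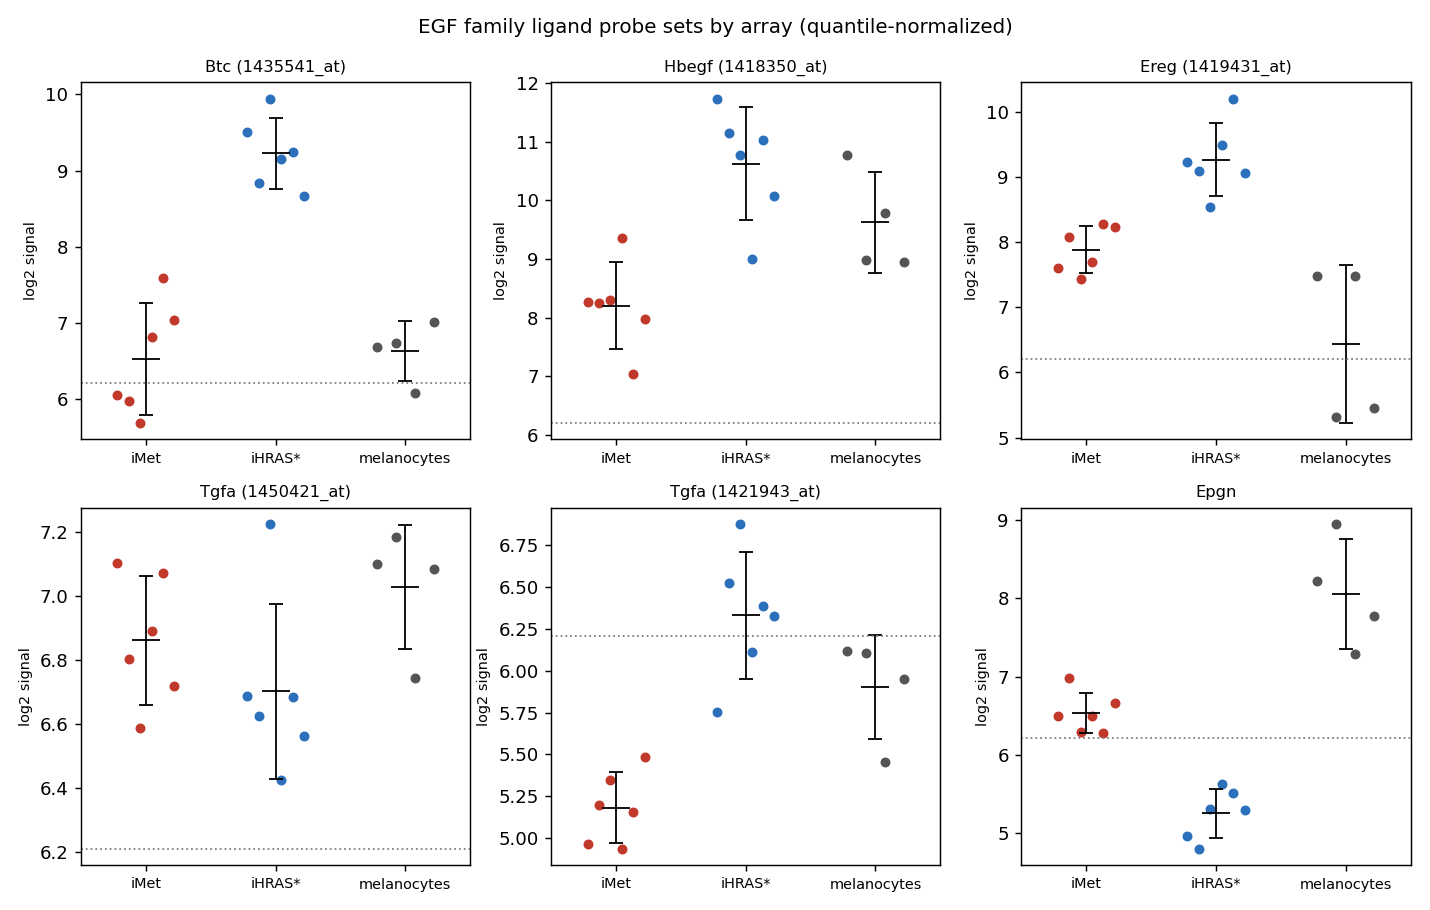
Log2 signal of EGF family ligand probe sets on each array (points), with the group mean and SD (bars), for 6 iMet tumours, 6 iHRAS* tumours and 4 melanocyte arrays; the dotted line marks log2 6.21 and each panel has its own vertical scale. Btc is highest in all 6 iHRAS* tumours, Ereg of the 2 lower melanocyte arrays lies near 5.4, and Epgn is lowest in the iHRAS* tumours.

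Tgfa (transforming growth factor alpha), another ligand of EGFR, gave discordant probe sets. The one that passed the filter in every comparison (1450421_at) was at 6.59 to 7.10 in iMet tumours, 6.42 to 7.22 over the iHRAS* arrays and 6.74 to 7.19 over the melanocyte arrays, and it was called in none of the 3 comparisons. Its difference between the tumour models was 0.16, with a 95% interval from −0.15 to 0.47 (adjusted p = 0.458). The dimmer 1421943_at went the other way. It ran from 4.94 to 5.48 in iMet tumours and from 5.75 to 6.87 in iHRAS* tumours, and an exact permutation test gave p = 0.00216 (adjusted p = 0.00974) for a difference of −1.15. All its iMet values lay under 6.21, so that iHRAS* tumours were at least 1.09-fold higher. Against melanocytes, at 5.45 to 6.12, it was lower in iMet tumours by −0.72 ± 0.20 (adjusted p = 0.0117), with both groups below 6.21 on every array, and the call was lost without melanocyte arrays 2 and 4, at −0.60 (adjusted p = 0.115), and as deposited, at −0.44 (adjusted p = 0.163; 0.00503 to 0.163 over the alternatives run). Only iHRAS* arrays carried this probe set past the signal filter, so that call adds little. In iHRAS* tumours it differed from melanocytes by 0.43 (adjusted p = 0.102), which passed as deposited, at 0.61 (adjusted p = 0.0403), after median centring, at 0.60 (adjusted p = 0.0332), and without iHRAS* array 1, at 0.54 (adjusted p = 0.0324; 0.0324 to 0.351 over the alternatives run). The third probe set (1421942_s_at) exceeded 6.21 on 1 iMet and 1 iHRAS* array, and its exact permutation tests gave p = 0.870, 0.338 and 0.281. Nearest to 1450421_at, whose own spread was 0.24, were Klhdc2 (0.13 log2), Mrpl14 (0.15) and Cnot2 (0.15).

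**Figure D3:**
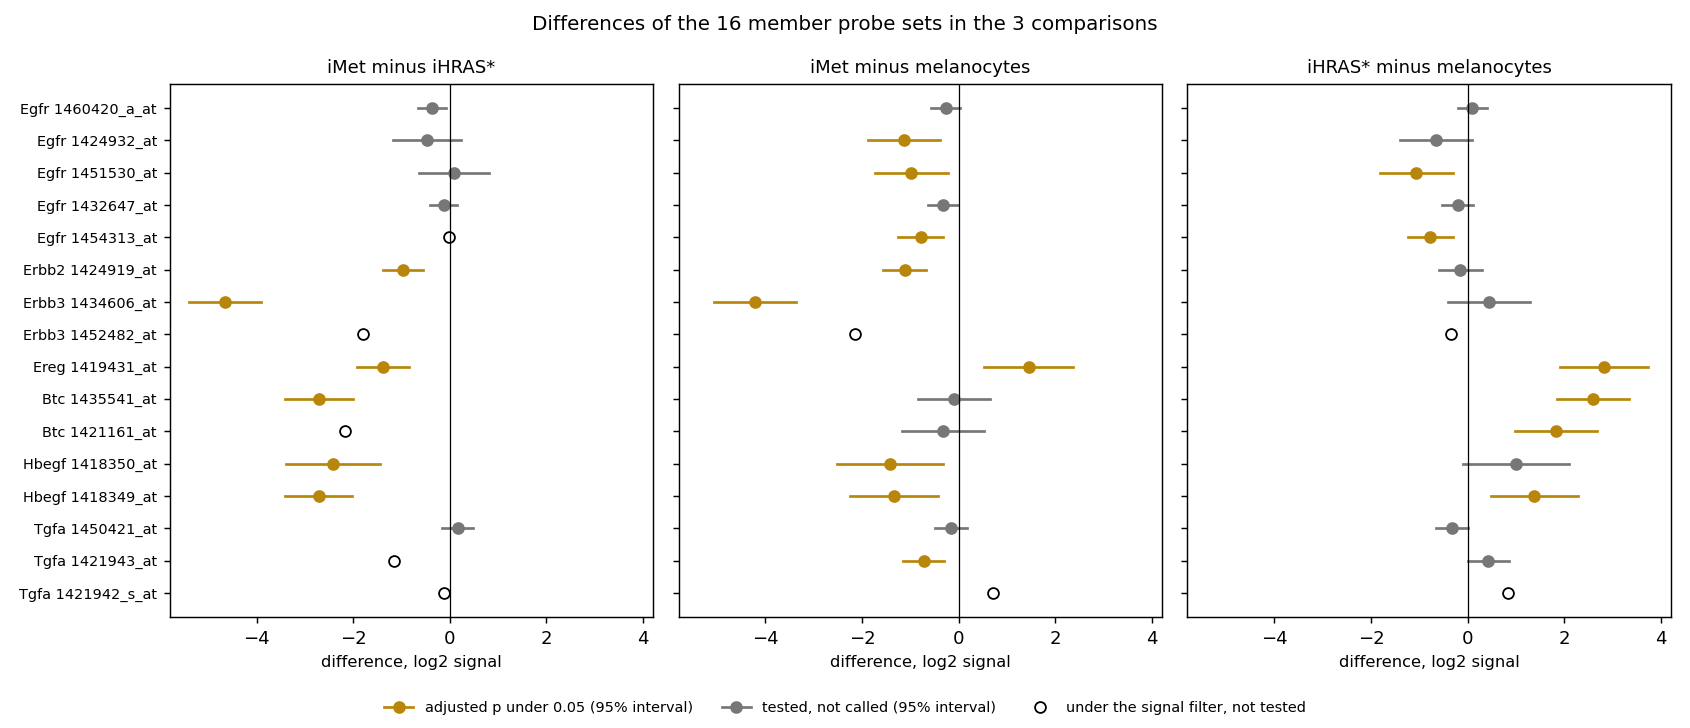
Differences in log2 signal of the 16 member probe sets (rows) for iMet minus iHRAS*, iMet minus melanocytes and iHRAS* minus melanocytes; lines are 95% intervals, gold marks adjusted p under 0.05, grey marks tested probe sets that were not called and open circles mark probe sets under the signal filter. In the first panel the 6 called probe sets lie left of 0, with Erbb3 at −4.66.

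Keratinocytes are a known source of EGF family ligands, and their marker mean differed between iMet and iHRAS* tumours by −2.61 (exact permutation p = 0.0238; adjusted p = 0.0330). It ranged widely among iMet tumours. Of the 11 markers, 4 were lower in iMet tumours and none higher, against 9.39% of all genes called lower. None of the 11 lay above 6.21 on every iMet array. The marker mean was 4.53 to 9.41 over iMet arrays and 8.65 to 10.85 over iHRAS* arrays, so the ranges overlapped in part. With the keratinocyte mean as a covariate, the differences between the models were −4.05 for Erbb3 (adjusted p = 0.000609), −2.89 for Btc (adjusted p = 0.00586) and −2.99 and −3.14 for the probe sets of Hbegf (adjusted p = 0.0146 and 0.00235), and these 4 member probe sets were called lower. The calls of Erbb2 (−0.90, adjusted p = 0.0722) and Ereg (−1.13, adjusted p = 0.0715) were lost. Over all probe sets tested, calls fell from 2657 to 664 with this covariate, so the loss was not particular to these members. Macrophages can also make several of these ligands, and their marker mean was higher in iMet tumours, at 9.81 to 10.66 against 8.27 to 10.02 in iHRAS* tumours (exact permutation p = 0.0152; adjusted p = 0.0227). The part of either cell type in the member differences was not tested.

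**Figure D4:**
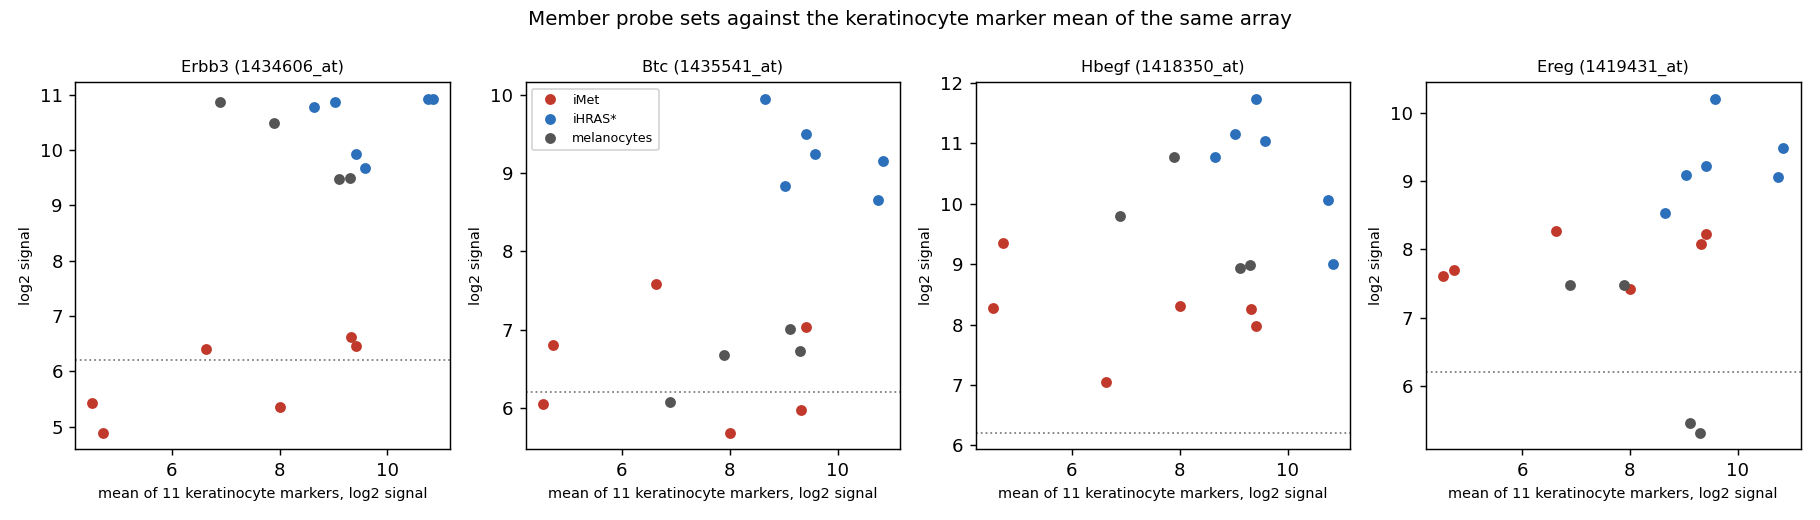
Log2 signal of Erbb3, Btc, Hbegf and Ereg (vertical axes) against the mean log2 signal of 11 keratinocyte markers on the same array (horizontal axes) for 6 iMet tumours, 6 iHRAS* tumours and 4 melanocyte arrays; the dotted line marks log2 6.21. Keratinocyte means run from 4.53 to 9.41 in iMet tumours and from 8.65 to 10.85 in iHRAS* tumours.

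The comparisons of each tumour model with melanocytes share the same 4 melanocyte arrays and are given side by side. In iMet tumours, 8 of the 14 member probe sets tested were lower and 1, Ereg, was higher, against 17.5% and 14.9% of all 14999 probe sets tested, 32.5% either way, and 18.2% of genes called lower. The lower ones belonged to Egfr (3 probe sets), Hbegf (2), Erbb2, Erbb3 and Tgfa. In iHRAS* tumours 4 were higher, namely both Btc probe sets, Ereg and 1 of Hbegf, and 2 of Egfr were lower, against 15.8% and 21.9% of all tested, 37.8% either way, and 17.8% and 20.7% of genes. These counts hold 2 probe sets that only iHRAS* arrays carried past the filter: Btc 1421161_at, which had to differ in iHRAS* tumours, and Tgfa 1421943_at, which was below 6.21 on every iMet and melanocyte array. They are no support for the counts. Egfr 1454313_at, called lower in both models, exceeded 6.21 on 3 melanocyte arrays, 1 iMet array and no iHRAS* array. It passed the filter mainly through melanocytes, where it is high, so its calls are no support either. The member medians were −0.76 for iMet and 0.26 for iHRAS* tumours, against −0.09 and −0.13 over all tested. In 3 and 4 of the 14 the groups did not overlap, against 26.8% and 24.6% of all tested.

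The number lower in iMet tumours was not firm: it was 2 as deposited, 4 without melanocyte arrays 1 and 3, and 5 without melanocyte arrays 2 and 4, without melanocyte array 1 or without iMet array 5. None was higher without melanocyte array 2 or 4 or both. The number lower in iHRAS* tumours was 0 as deposited or without melanocyte arrays 1 and 3, and 1 without melanocyte array 1, 2 or 4, both arrays 2 and 4, or iHRAS* array 1 or 4. The share of all calls that were higher was 46.0% for iMet and 41.9% for iHRAS* tumours, against 56.8% and 33.4% as deposited and 34.0% and 31.5% after median centring.

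Among the other receptors and ligands of the family, Epgn was the 1 tested of 5 on the array. It was at 6.50, 6.98, 6.30, 6.49, 6.29 and 6.66 in iMet tumours 1 to 6, at 4.96, 4.80, 5.31, 5.62, 5.51 and 5.29 in iHRAS* tumours 1 to 6, and at 8.22, 8.95, 7.30 and 7.77 in melanocytes 1 to 4. The 3 groups did not overlap, and the order was the reverse of that of Ereg, with melanocytes highest and iHRAS* tumours lowest. Between the models, iMet tumours lay 1.29 above iHRAS* tumours, which is given as a description: the probe set passed the filter there only through the iMet arrays, so it had to differ. Against melanocytes it fell by 1.52 in iMet tumours (SE 0.26, adjusted p = 0.000526) and by 2.81 in iHRAS* tumours (SE 0.26, adjusted p = 2.45e-06). All iHRAS* values lay under 6.21, so the sizes of the differences from them are uncertain. Erbb4, Egf, Nrg3 and Nrg4 did not pass the signal filter in any comparison, with group means of 1.39 to 5.62, and Nrg1 and Nrg2 were not analysed here. Neuregulin supply to ERBB3 could therefore not be read from Nrg1, its principal ligand in this lineage.

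Genes that release the ligands moved in both directions between the models. Of 10 tested, 2 were higher and 2 lower in iMet tumours (median −0.04), against 20.2% of all genes, taken by their brightest probe set, called either way. Adam10, the main protease for Btc and EGF, was lower by −0.58 ± 0.10 (adjusted p = 0.00231), and Rhbdf1, which encodes an iRhom that escorts ADAM17, by −0.83 ± 0.18 (adjusted p = 0.00700). Adam12, which can shed HB-EGF, was higher by 1.91 ± 0.35 (adjusted p = 0.00346) and Adam8 by 1.15 ± 0.26 (adjusted p = 0.0101).

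Against melanocytes, 4 of the 10 release genes were higher in iMet tumours and 6 in iHRAS* tumours, with none lower, against backgrounds of 34.1% and 38.5% called either way. The medians were 0.53 and 0.70, against −0.08 and −0.09 over all genes tested. Adam17, which releases Tgfa, Hbegf and Ereg among others, was higher by 1.13 ± 0.18 in iMet tumours (adjusted p = 0.000324) and by 1.07 ± 0.18 in iHRAS* tumours (adjusted p = 0.000468). Adam8, also a myeloid gene, was higher by 3.93 and 2.78 over a melanocyte mean of 5.39 (SD 0.39), below the 6.21 level. Only tumour arrays carried Adam8 past the signal filter, so it had to differ and is no support for the counts of release genes. Adam9 was higher by 0.63 and 0.76 (adjusted p = 0.0181 and 0.00574) in iMet and iHRAS* tumours. Adam10 differed by 0.09 and 0.68 (adjusted p = 0.606 and 0.00106) and Adam12 by 1.63 and −0.28 (adjusted p = 0.00933 and 0.632) in iMet and iHRAS* tumours. Macrophage marker means were higher in both tumour groups than in melanocytes, and their part in these results was not tested.

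Among the regulators that restrain the receptors, Errfi1 differed most from melanocytes in both models. Errfi1 (also called Mig6), an inducible protein that binds the kinase domain of EGFR and its relatives and blocks it, was at 12.40, 13.06, 12.76, 11.87, 11.31 and 12.68 in iMet tumours 1 to 6. It was at 11.50, 11.40, 11.23, 10.46, 11.60 and 11.11 in iHRAS* tumours 1 to 6 and at 8.24, 8.16, 8.41 and 8.89 in melanocytes 1 to 4. Every tumour lay above every melanocyte array. The excess was 3.92 ± 0.31 in iMet tumours (adjusted p = 3.59e-07) and 2.79 ± 0.31 in iHRAS* tumours (adjusted p = 1.09e-05). Between the models Errfi1 was higher in iMet tumours by 1.13 ± 0.29 (adjusted p = 0.0177), although iMet tumour 5 lay within the iHRAS* range.

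**Figure D5:**
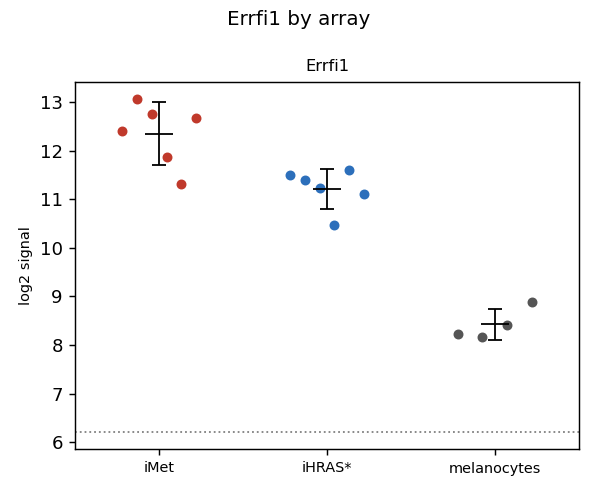
Log2 signal of Errfi1 on each array (points), with the group mean and SD (bars), for 6 iMet tumours, 6 iHRAS* tumours and 4 melanocyte arrays; the dotted line marks log2 6.21. The tumours lie between 10.46 and 13.06 and the melanocyte arrays between 8.16 and 8.89.

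Of 11 restraint and trafficking genes tested between the models, 3 were higher and 2 lower in iMet tumours (median −0.15), against 20.2% of all genes called either way. Besides Errfi1, Lrig1, a membrane protein that lowers ErbB receptor levels, was higher by 0.94 ± 0.27 (adjusted p = 0.0308). The phosphatase gene Ptpn2 was lower by −0.40 ± 0.12 (adjusted p = 0.0334), and Socs5, which promotes EGFR degradation, by −1.19 ± 0.18 (adjusted p = 0.000952). Against melanocytes, 4 were higher and 1 lower in iMet tumours (median 0.06), and 3 were higher and none lower in iHRAS* tumours (median 0.41), against 34.1% and 38.5% of all genes called either way. Lrig1 differed by 1.24 ± 0.29 in iMet and 0.30 ± 0.29 in iHRAS* tumours (adjusted p = 0.00417 and 0.431). Eps15 differed by 1.01 ± 0.21 and 0.41 ± 0.21 (adjusted p = 0.00239 and 0.139). Between the models Eps15 was higher in iMet tumours by 0.59 ± 0.18 (adjusted p = 0.0400). Rnf41, a ubiquitin ligase known to act on ERBB3, differed by −0.69 ± 0.20 and −0.14 ± 0.20 (adjusted p = 0.0153 and 0.597). Socs5 differed by −0.15 ± 0.19 in iMet and 1.04 ± 0.19 in iHRAS* tumours (adjusted p = 0.571 and 0.000628). Ptpn2 was higher in both, by 0.36 ± 0.12 in iMet and 0.76 ± 0.12 in iHRAS* tumours (adjusted p = 0.0374 and 0.000325).

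Of 16 genes of receptor-proximal signalling tested, 2 were higher and 3 lower in iMet than in iHRAS* tumours (median −0.01), against 20.2% of all genes called either way. Pik3ca, the catalytic subunit of phosphoinositide 3-kinase, was higher by 0.50 ± 0.11 (adjusted p = 0.00816) and Nck1 by 0.76 ± 0.22 (adjusted p = 0.0321). The adaptors Crk and Grb2, which link receptors to downstream signalling, were lower by −0.57 ± 0.13 and −0.42 ± 0.10 (adjusted p = 0.0103 and 0.0150). Against melanocytes, 3 were higher and 4 lower in iMet tumours, and 2 higher and 4 lower in iHRAS* tumours, with medians of −0.13 and −0.02, against 34.1% and 38.5% of all genes called either way. The docking protein Gab1 was lower by −1.45 ± 0.29 in iMet and by −1.19 ± 0.29 in iHRAS* tumours (adjusted p = 0.00148 and 0.00494). The phosphatase Ptpn11 was lower by −0.76 in iMet and −0.75 in iHRAS* tumours (adjusted p = 0.0147 and 0.0133). Src, a kinase, was lower by −0.94 ± 0.20 in iMet and −0.56 ± 0.20 in iHRAS* tumours (adjusted p = 0.00206 and 0.0361). Sos1, an exchange factor that loads RAS, was lower by −0.76 ± 0.27 in both (adjusted p = 0.0403 and 0.0360). The exchange factor Vav3 was higher by 1.85 ± 0.39 in iMet and 1.08 ± 0.39 in iHRAS* tumours (adjusted p = 0.00223 and 0.0401). Crk differed by −0.10 ± 0.15 in iMet and 0.47 ± 0.15 in iHRAS* tumours (adjusted p = 0.637 and 0.0224).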

How the data were processed

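Messenger RNA was measured on Affymetrix M430A_2 arrays in 16 samples, grouped by their titles. The authors deposited 1 table of log2 signal for 22690 probe sets; the log2 scale was inferred from its range (−4.07 to 14.5), and summarisation and normalization are not given in the sources used here. Array medians ran from 6.56 to 7.28, so the 22626 probe sets that are not controls were quantile-normalized in R 4.3.3. Genes were named through the platform annotation: 20380 probe sets had 1 symbol, 691 several and 1555 none.

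limma 3.58.1 (lmFit, eBayes, two-sided) was fitted at probe set level, on the 12 tumour arrays for the models and on all 16 against melanocytes, with Benjamini-Hochberg adjustment. Every adjusted p is limma's except where an exact permutation test (two-sided) is named; those of 9 member values and of the marker means were adjusted as 2 families. Other genes were represented by their brightest probe set. The text names every member, up to 4 called genes per list and comparison, and the 3 nearest profiles of each member. Members and lists were chosen with earlier results of these data known, and motifs and the Krt5 and Krt14 values after values were seen. The fits were tested on simulated data. Alternatives were scaling, filter, fit level, intensity trend, replicate number, a keratinocyte covariate and arrays left out. The number of arrays limited the precision.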

Additional observations from a re-analysis of the deposited data

Results flagged for a closer look

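Of 48 sets of values (16 member probe sets in 3 groups), 3 held 1 array with a gap to its nearest neighbour that was large for the range of its group; chance alone gives about 1 in 20. Erbb3 (1452482_at) was at 5.59 on iMet array 6, with the next iMet array at 3.21. Tgfa (1450421_at) was at 7.22 on iHRAS* array 3, with the next at 6.69, and without that array its difference from melanocytes was −0.43 and passed (adjusted p = 0.0190; 0.0190 to 0.457 over the alternatives run). Tgfa (1421942_s_at) was at 5.61 on melanocyte array 3, with the next at 4.01.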

How the results depend on the processing

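Between the tumour models, no member probe set was higher and 4 to 8 were lower under all 22 alternatives, and Erbb3, Btc and both Hbegf probe sets stayed lower in each that tested them. Over all single probe sets, 754 alternative values kept their side of the threshold, 62 lost a call, 7 gained one and none of the called ones reversed. Against melanocytes, the 8 lower in iMet tumours became 2 as deposited, 5 with a filter at the 60th percentile, 3 with 1 probe set per gene, 4 without melanocyte arrays 1 and 3, 5 without arrays 2 and 4, and 5 to 8 with single arrays left out. The 1 higher became 0 without melanocyte arrays 2 and 4, and 0 to 1 with single arrays left out. The 4 higher in iHRAS* tumours became 2 with 1 probe set per gene, which tests fewer probe sets. The 2 lower became 0 as deposited, with the 60th percentile filter, with 1 probe set per gene and without melanocyte arrays 1 and 3. They became 1 after median centring, with the keratinocyte covariate, with only the 2 groups in the fit and without melanocyte arrays 2 and 4, and 1 to 3 with single arrays left out. Apart from the fewer arrays or probe sets, the cause was not tested. With the replicate number as a block, 6 were lower between the models, 4 lower and 0 higher in iMet tumours against melanocytes, and 4 higher and 2 lower in iHRAS* tumours. The samples share only a number: deviations of same-numbered arrays correlated at −0.26 to 0.12 between the models, and 1 of 6 iMet arrays correlated best with its own number. Over all probe sets, the 2657 calls between the models became 1754 with the block, 1687 with 1 probe set per gene and 664 with the keratinocyte covariate. The 4869 calls of iMet tumours against melanocytes became 3040, and the 5665 of iHRAS* tumours 3404, with 1 probe set per gene, and the 5665 became 3469 without melanocyte arrays 2 and 4. Scaling moved the median difference over all probe sets from 0.06 to 0.26 between the models as deposited, from −0.13 to −0.24 for iHRAS* tumours against melanocytes as deposited, and from −0.09 to −0.22 for iMet tumours against melanocytes after median centring, so member differences are relative to these shifts. Values near log2 6.21 or below limit the size of differences.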
